A study of Mus musculus with 8 samples.

Results

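The nuclear genes for proteins of the mitochondrial ribosome were described in whole mouse cerebellum, as bulk RNA. Members were the genes of the count table whose symbol is Mrpl or Mrps followed by a number and that had at least 10 counts in at least 4 of the 8 libraries. All 77 genes with such a symbol met the count minimum, of 24060 genes in the table. They comprise 48 genes with a large subunit symbol (Mrpl) and 29 with a small subunit symbol (Mrps). The 4 bigenic mice carried CalExflox together with Aldh1l1-Cre/ERT2, a Cre recombinase that tamoxifen activates in astrocytes. CalEx is a plasma membrane calcium pump that moves calcium out of the cell once Cre has switched the allele on. The 4 control mice carried CalExflox alone. All 8 mice received 1 tamoxifen dose of 75 mg/kg, and tissue was taken 5 days later. Genetic background, sex and age were not given in the sources used here. Cre was present in the bigenic mice alone, so an effect of Cre and an effect of the pump cannot be told apart.

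Mitochondrial ribosomes translate the few proteins encoded by mitochondrial DNA, which are core subunits of the respiratory chain complexes and of the ATP synthase. Their RNA is made in the mitochondrion, whereas all of their proteins are encoded in the nucleus, made in the cytosol and imported. Some of these proteins descend from bacterial ribosomal proteins and others are found only in mitochondrial ribosomes. In brain, neurons and glia both depend on them for oxidative phosphorylation.

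Library totals ranged from 35208460 to 38293012 counted reads, of which members took 82932 to 105951. The 10 markers of cerebellum summed to 10600 to 11500 CPM (read counts scaled to a common library size) in bigenic and 9860 to 11400 in control libraries, and none was at 0. The 10 markers of choroid plexus, the epithelium of the brain ventricles, summed to 163 to 232 CPM in bigenic libraries but to 665, 3830, 4860 and 295 CPM in control libraries 1 to 4, so that control libraries 2 and 3 stand apart. Since counts come from bulk tissue, fewer cells of a type and less RNA per cell cannot be told apart.

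Large subunit genes were lower in bigenic cerebellum more often than higher. Small subunit genes fell and rose in almost equal numbers under the scaling used here, but not under every scaling. A gene was called higher or lower when the quasi-likelihood F test of edgeR gave an adjusted p under 0.05 (Benjamini-Hochberg over 15186 genes). Of all genes tested, 44.3% were called, 21.4% as higher and 22.9% as lower. Among the 48 large subunit genes, 7 were higher (14.6%), 20 were lower (41.7%) and 21 were not called. Among the 29 small subunit genes, 7 were higher (24.1%), 8 were lower (27.6%) and 14 were not called. The share called lower among large subunit genes was above that of all genes, while both shares of the small subunit lay near it. Scaled by library size alone, the small subunit had 5 higher and 10 lower genes. On FPKM, counts scaled by library total and gene length, it had 5 and 13. Of all calls, 35.7% and 35.3% were higher in these 2 fits. With an offset for gene length and GC content it had 9 higher and 7 lower.

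Changes were mostly modest in size. The median log2 fold change was -0.09 for the large subunit, -0.05 for the small subunit and -0.00 for all genes tested. The large subunit median stayed below 0 under each scaling and offset tried, nearest to 0 at -0.024 with an offset for gene length and GC content. The small subunit median turned to 0.034 with that offset. The median of all genes tested also moved, to 0.043, and lay above both subunit medians there. With it, 28.5% of all genes were higher and 21.9% lower, and the large subunit then had 15 higher and 17 lower genes and the small subunit 9 and 7. Only 10 members (3 higher, 7 lower) were called with more than a 1.5-fold change, against 19.5% of all genes tested. The CPM of the 4 bigenic and 4 control libraries did not overlap for 24 large (5 higher, 19 lower) and 14 small subunit genes (4 higher, 10 lower), where 40.7% of all genes tested showed no overlap.

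**Figure D1:**
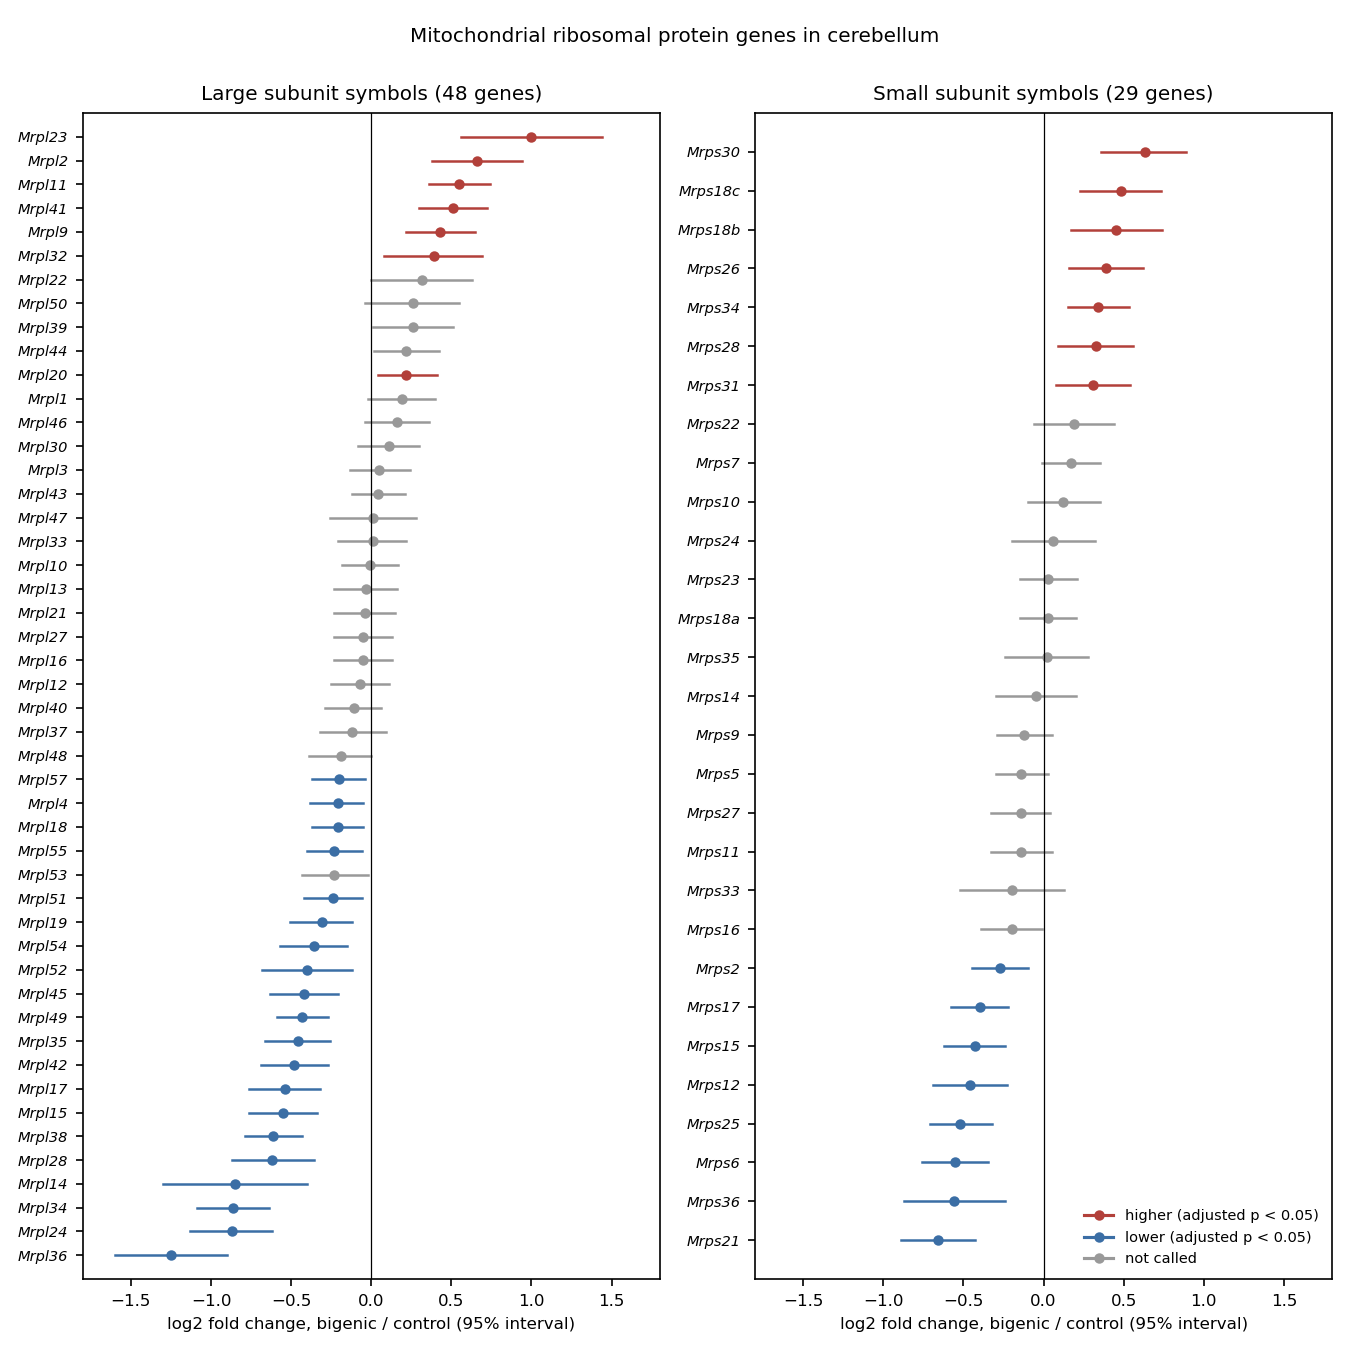
Log2 fold change (bigenic over control) of each of the 77 members with its 95% interval from the edgeR fit, large subunit symbols on the left and small subunit symbols on the right; red points are called higher, blue points lower and grey points not called. Values run from -1.25 for Mrpl36 to 1.0 for Mrpl23.

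**Figure D2:**
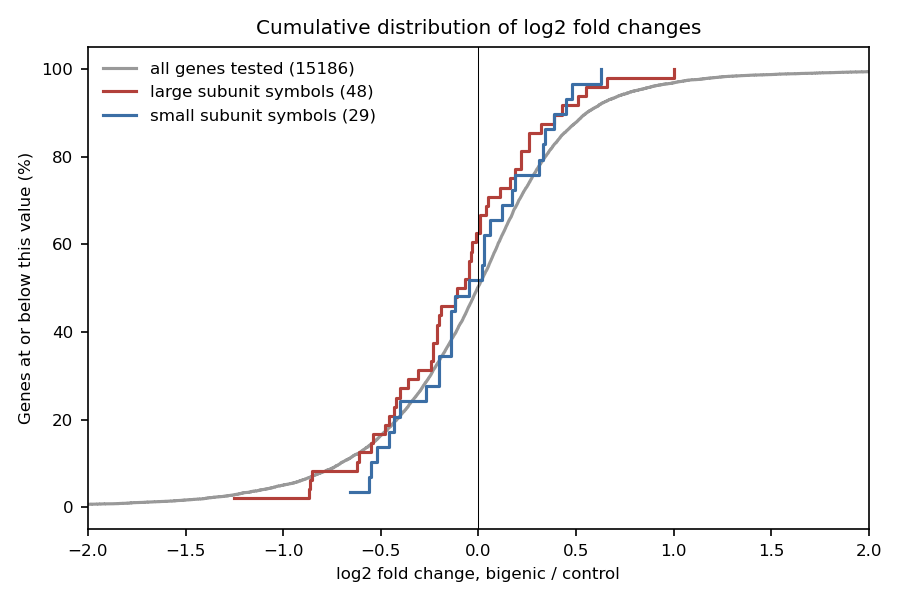
Cumulative share of genes (%) by log2 fold change for all 15186 genes tested (grey), the 48 large subunit genes (red) and the 29 small subunit genes (blue). The red curve lies above the grey one around 0, with a median of -0.09 against -0.00.

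Promoters are shown for members called in opposite directions, since genes of 1 ribosome moved both ways. Each run spans 250 bases before to 50 after the RefSeq start (GRCm38.p6, the mm10 build), and 68 of the 77 members have an entry. Motifs searched on both strands were GCGCATGC for NRF1 and CCGGAAG for the ETS family that includes GABP, both regulators of mitochondrial genes, AAGATGGC for YY1, and the E-box CACGTG. Capitals mark matches, overlapping ones included. From each subunit and direction the member with the smallest p was taken among those with groups apart, 1 entry and a match, and Mrpl36 was added for its size of change. Mrpl34 (chr8:71464676-71464975, plus strand), Mrps21 (chr3:95871465-95871764, minus strand) and Mrpl36 (chr13:73330759-73331058, plus strand) were lower. Mrpl9 (chr3:94443086-94443385, plus strand) and Mrps18c (chr5:100798509-100798808, plus strand) were higher.
Mrpl34: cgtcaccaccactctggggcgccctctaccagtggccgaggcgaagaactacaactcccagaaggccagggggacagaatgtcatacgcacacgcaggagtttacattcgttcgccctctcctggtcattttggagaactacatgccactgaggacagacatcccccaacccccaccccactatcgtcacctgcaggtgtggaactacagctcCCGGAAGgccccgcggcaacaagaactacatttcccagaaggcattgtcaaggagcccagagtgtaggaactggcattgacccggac
Mrps21: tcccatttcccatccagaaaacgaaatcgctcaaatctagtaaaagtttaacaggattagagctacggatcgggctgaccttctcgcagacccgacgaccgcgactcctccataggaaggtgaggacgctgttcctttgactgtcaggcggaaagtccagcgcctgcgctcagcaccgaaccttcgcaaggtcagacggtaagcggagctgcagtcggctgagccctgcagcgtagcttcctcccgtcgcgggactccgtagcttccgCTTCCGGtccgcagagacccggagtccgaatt
Mrpl36: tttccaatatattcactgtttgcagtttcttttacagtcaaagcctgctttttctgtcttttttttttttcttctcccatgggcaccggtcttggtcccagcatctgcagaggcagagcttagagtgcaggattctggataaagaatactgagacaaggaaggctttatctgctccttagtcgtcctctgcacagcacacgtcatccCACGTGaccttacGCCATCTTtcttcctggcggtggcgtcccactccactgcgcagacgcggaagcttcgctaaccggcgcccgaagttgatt
Mrpl9: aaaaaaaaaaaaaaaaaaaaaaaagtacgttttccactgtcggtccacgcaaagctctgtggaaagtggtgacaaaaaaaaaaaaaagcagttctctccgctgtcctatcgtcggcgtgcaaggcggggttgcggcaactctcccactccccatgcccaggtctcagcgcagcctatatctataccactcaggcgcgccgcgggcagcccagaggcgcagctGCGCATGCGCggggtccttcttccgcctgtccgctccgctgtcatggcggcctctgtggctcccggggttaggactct
Mrps18c: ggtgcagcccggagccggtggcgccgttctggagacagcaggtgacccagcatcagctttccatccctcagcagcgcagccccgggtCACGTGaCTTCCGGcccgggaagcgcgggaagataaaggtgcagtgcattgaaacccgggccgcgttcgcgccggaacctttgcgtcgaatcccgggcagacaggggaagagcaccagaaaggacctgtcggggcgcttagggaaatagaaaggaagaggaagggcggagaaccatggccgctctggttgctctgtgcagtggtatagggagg

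The ETS letters occur in the promoter of Mrpl34 in the given direction, and reversed in those of Mrps21 and Mrps18c. Mrpl36 holds a reversed YY1 match and an E-box, Mrpl9 NRF1 matches on both strands that overlap, and Mrps18c an E-box. Among the 68 members with a promoter, 25 (36.8%) held the ETS letters, against 9.93% of all genes with a promoter entry, 12 (17.6%) held the YY1 letters against 3.19%, and 8 (11.8%) the NRF1 letters against 3.05%. E-boxes were found in 5 members (7.35%) and in 8.09% of all genes with an entry. These shares of all genes cover 27025 genes, more than the 15186 tested here, and were not matched to the members for expression. The ETS letters were present in 3 of 12 higher, 8 of 23 lower and 14 of 33 uncalled members. NRF1 letters were present in 3 of 12 higher, 1 of 23 lower and 4 of 33 uncalled members. For YY1 the counts were 1 of 12, 5 of 23 and 6 of 33, and for the E-box 3 of 12, 1 of 23 and 1 of 33. These are matches of letters in 1 window and no measure of binding. The Mrpl36 window starts inside the GENCODE gene, whose outermost start lies at 73328513.

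Large subunit genes with the firmest decreases were Mrpl36, Mrpl34, Mrpl24, Mrpl38, Mrpl49 and Mrpl15. Mrpl36 encodes a small protein with a bacterial counterpart. Its level was 13.0, 8.60, 7.15 and 11 CPM in bigenic libraries 1 to 4 and 24.1, 24.1, 20.6 and 25.6 CPM in control libraries 1 to 4. Every bigenic value lay below every control value, and the log2 fold change was -1.25 ± 0.16 (SE; adjusted p = 0.00016, edgeR), or 2.38-fold lower. Mrpl36 (chromosome 13, 73328513 to 73332178, plus strand) shares 30 exonic bases with Ndufs6 on the opposite strand, and whether counting used strand is not given. Ndufs6, a subunit of respiratory complex I, had a log2 fold change of 0.11 ± 0.09 (adjusted p = 0.31, edgeR).

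Mrpl34 and Mrpl24 also have bacterial counterparts, and the counterpart of Mrpl24 helps to start assembly of the bacterial large subunit. Mrpl34 (chromosome 8, 71464959 to 71465747, plus strand) stood at 17.5, 14.1, 12.6 and 15.4 CPM in bigenic and at 26.0, 27.5, 27.6 and 27.4 CPM in control libraries. The groups were well apart, with a log2 fold change of -0.86 ± 0.10 (adjusted p = 0.0001, edgeR). Mrpl24 (chromosome 3, 87919506 to 87923672, plus strand) stood at 23.2, 28.7, 19 and 21.1 CPM in bigenic and at 41.0, 41.5, 43.5 and 42.6 CPM in control libraries. Its fold change was close to that of Mrpl34 at -0.87 ± 0.12 (log2; adjusted p = 0.00017, edgeR), with bigenic library 2 the highest of its group. Mrpl24 shares 594 exonic bases with the antisense gene Rrnad1.

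Mrpl38 and Mrpl49 belong to the proteins found only in mitochondrial ribosomes. Mrpl38 (chromosome 11, 116131817 to 116138868, minus strand) measured 26.2, 24.9, 22.3 and 26.4 CPM in bigenic and 40.0, 37.6, 36.8 and 38.1 CPM in control libraries. These values were tightly grouped and gave a log2 fold change of -0.61 ± 0.08 (adjusted p = 0.00019, edgeR). Mrpl49 (chromosome 19, 6053622 to 6057785, minus strand) measured 49.9, 44.3, 44.5 and 45.0 CPM in bigenic and 58.5, 61.9, 64.7 and 62.4 CPM in control libraries, a log2 fold change of -0.43 ± 0.07 (adjusted p = 0.00076, edgeR). Its exons overlap those of the antisense gene Syvn1. Mrpl15, counterpart of a bacterial protein, was at 32.4, 25.3, 26.9 and 32.4 CPM in bigenic and at 42.8, 44.2, 41.6 and 42.5 CPM in control libraries. No Mrpl15 value overlapped between groups, and the log2 fold change was -0.55 ± 0.10 (adjusted p = 0.00089, edgeR).

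The other 14 large subunit genes called lower were Mrpl14, Mrpl28, Mrpl17, Mrpl42, Mrpl35, Mrpl45, Mrpl52, Mrpl54, Mrpl19, Mrpl51, Mrpl55, Mrpl18, Mrpl4 and Mrpl57. Their log2 fold changes ran from -0.85 for Mrpl14 to -0.20 for Mrpl57. Mrpl45, which sits near the exit of the nascent chain at the inner membrane, was lower by a log2 fold change of -0.42. Mrpl42, among the 3 large subunit genes with the highest FPKM (57.3, per length), was at 30.3, 29.5, 35.5 and 31.6 CPM in bigenic and 38.6, 43.1, 47.3 and 48 CPM in control libraries (log2 fold change -0.48 ± 0.09, adjusted p = 0.002, edgeR). Summed over the 20 genes called lower, the level was 502 to 575 CPM in bigenic and 731 to 749 CPM in control libraries, a sum that the calls themselves chose.

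**Figure D3:**
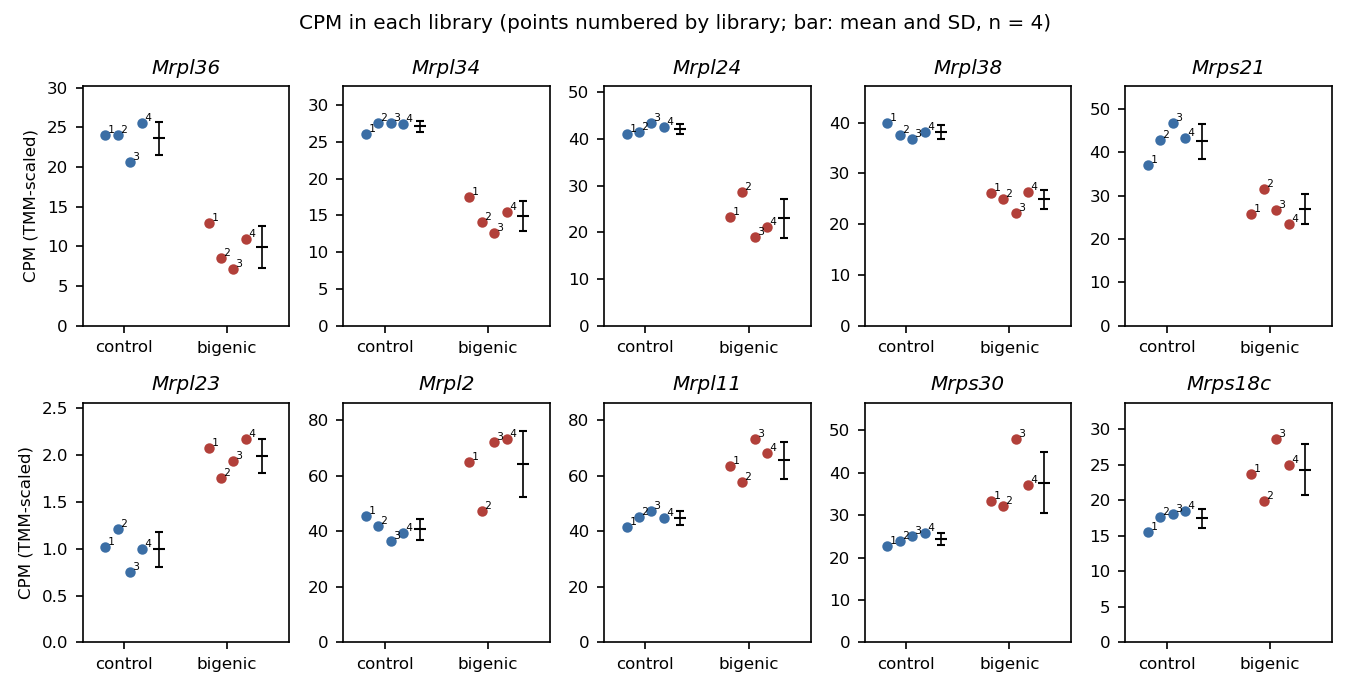
CPM (TMM-scaled) in each library for 10 members, control libraries in blue and bigenic libraries in red, points numbered by library, with the group mean and SD (n = 4) beside them; every axis starts at 0. In each panel the bigenic values lie on 1 side of the control values, lower for Mrpl36, Mrpl34, Mrpl24, Mrpl38 and Mrps21 and higher for Mrpl23, Mrpl2, Mrpl11, Mrps30 and Mrps18c.

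Genes for 5 large subunit proteins were higher with no overlap: Mrpl11, Mrpl41, Mrpl2, Mrpl23 and Mrpl9. Mrpl11 encodes the counterpart of bacterial L11, at the base of the stalk where translation factors bind. It measured 63.3, 57.6, 73.1 and 68.2 CPM in bigenic and 41.5, 45.2, 47.3 and 44.9 CPM in control libraries. The log2 fold change of Mrpl11 was 0.55 ± 0.09 (adjusted p = 0.00051, edgeR), and it was the 1 higher member of the large subunit called under each of 21 alternative settings. The other stalk proteins measured were not called: Mrpl10 had a log2 fold change of -0.01 and Mrpl12 one of -0.07.

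Mrpl2 and Mrpl23 have counterparts near the peptidyl transferase centre and at the polypeptide exit in bacteria. Mrpl2 (chromosome 17, 46646229 to 46650139, plus strand) was at 64.8, 47.3, 72.0 and 73.2 CPM in bigenic and 45.4, 41.8, 36.4 and 39.3 CPM in control libraries. Bigenic library 2 lay just above the highest control, and the log2 fold change was 0.66 ± 0.13 (adjusted p = 0.0019, edgeR). Mrpl23 had the lowest FPKM of all members (2.54) and measured 2.08, 1.76, 1.94 and 2.17 CPM in bigenic and 1.02, 1.21, 0.75 and 1.00 CPM in control libraries. Its log2 fold change was 1.0 ± 0.2 (adjusted p = 0.0023, edgeR), with a 95% interval from 0.56 to 1.44.

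Mrpl41, specific to mitochondria, was at 97.5, 75.2, 94.6 and 94.7 CPM in bigenic and 56.1, 62.4, 67.6 and 67.7 CPM in control libraries (log2 fold change 0.51 ± 0.10, adjusted p = 0.0015, edgeR). Mrpl9 was at 69.8, 56.7, 80.0 and 70.7 CPM in bigenic and 53.7, 49.3, 52.2 and 50 CPM in control libraries (log2 fold change 0.43 ± 0.10, adjusted p = 0.0043, edgeR). In both genes the lowest bigenic value came from library 2. Mrpl9 shares exonic bases with the antisense gene Oaz3. Mrpl32, at a log2 fold change of 0.39, and Mrpl20, at 0.22, were also higher, with groups that overlapped.

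By FPKM the most abundant large subunit genes were Mrpl20 (77.5), Mrpl30 (64.6) and Mrpl42 (57.3). Mrpl20 was at 58.0, 47.5, 57.9 and 59.1 CPM in bigenic and 47.2, 47.6, 46.0 and 49.9 CPM in control libraries, a log2 fold change of 0.22 ± 0.08 (adjusted p = 0.048, edgeR). Its call was kept in 6 of 21 alternatives and lost with upper-quartile factors, library size alone and FPKM, and in 7 of the 8 fits that left out 1 library. Mrpl32 was kept in 8. Mrpl30 was not called at 0.11 ± 0.09 (adjusted p = 0.34, edgeR). The smallest change was that of Mrpl33, at 0.01 ± 0.10 (log2; adjusted p = 0.97, edgeR), with a 95% interval from -0.21 to 0.22. Of the 30 large subunit genes with a bacterial counterpart 6 were higher (20.0%) and 12 lower (40.0%), with a median log2 fold change of -0.04. Of the 18 specific to mitochondria 1 was higher (5.56%) and 8 lower (44.4%), with a median of -0.20. The shares of all genes tested were 21.4% and 22.9%.

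In the small subunit, Mrps21 had the lowest log2 fold change and the highest FPKM of all members (85.7). Mrps21 (chromosome 3, 95862634 to 95871519, minus strand), a bacterial counterpart protein, measured 25.7, 31.6, 26.7 and 23.5 CPM in bigenic and 37.1, 42.8, 46.8 and 43.3 CPM in control libraries. The groups did not overlap, and the log2 fold change was -0.66 ± 0.11 (adjusted p = 0.00056, edgeR). Mrps12, whose bacterial counterpart takes part in decoding, measured 33.2, 25.2, 26.1 and 31.2 CPM in bigenic and 42.6, 40.9, 35.3 and 40.4 CPM in control libraries. Its log2 fold change was -0.46 ± 0.11 (adjusted p = 0.0047, edgeR), again without overlap.

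Mrps6, Mrps15 and Mrps17 are further counterparts of bacterial small subunit proteins that were lower. Mrps6 measured 11.5, 11.3, 11.8 and 12.3 CPM in bigenic and 15.7, 16.6, 18.3 and 18.2 CPM in control libraries (log2 fold change -0.55 ± 0.09, adjusted p = 0.00074, edgeR). It shares exonic bases with Slc5a3 on the same strand. Mrps15, at 22.7, 24.5, 22.8 and 21.4 CPM in bigenic and 27.8, 31.0, 30.4 and 33.7 CPM in control libraries, had a log2 fold change of -0.43 ± 0.09 (adjusted p = 0.0024, edgeR). Mrps17, at 33.7, 29.6, 27.8 and 31.3 CPM against 38.6, 40.0, 42.8 and 39.9 CPM, had one of -0.40 ± 0.08 (adjusted p = 0.0027, edgeR). Bigenic values of these 3 genes all lay below their control values.

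Mrps25, which is specific to mitochondria, measured 34.1, 41.7, 34.1 and 33.6 CPM in bigenic and 48.9, 50.5, 50.6 and 55.3 CPM in control libraries. The log2 fold change was -0.52 ± 0.09 (adjusted p = 0.00086, edgeR). Exons of Mrps25 share 4590 bases with the antisense gene Nr2c2, against a gene length of 6065 bases, so its count may hold reads of Nr2c2. Mrps2 was lower at a log2 fold change of -0.27. Mrps36 carries a ribosomal symbol, but its protein is counted as a subunit of the oxoglutarate dehydrogenase complex of the citric acid cycle. Its level was 3.19, 3.81, 3.05 and 3.48 CPM in bigenic and 4.65, 4.79, 4.52 and 5.95 CPM in control libraries, the lowest FPKM of the small subunit symbols (5.88). Mrps36 was lower by a log2 fold change of -0.56 ± 0.15 (adjusted p = 0.0095, edgeR).

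Higher small subunit genes with groups apart were Mrps30, Mrps18c, Mrps34 and Mrps18b. Mrps30, whose protein sits in the large subunit despite its symbol, measured 33.4, 32.1, 47.9 and 37.1 CPM in bigenic and 22.7, 23.9, 25.1 and 25.8 CPM in control libraries. Bigenic library 3 was the highest, and the log2 fold change was 0.63 ± 0.12 (adjusted p = 0.0017, edgeR). The related genes Mrps18a, Mrps18b and Mrps18c encode proteins similar to bacterial S18. Mrps18c takes its place in the ribosome, whereas Mrps18b occupies a site of its own, and is counted below as specific to mitochondria, and Mrps18a is placed in the large subunit. Mrps18c measured 23.7, 19.9, 28.6 and 24.9 CPM in bigenic and 15.5, 17.7, 18.1 and 18.5 CPM in control libraries (log2 fold change 0.48 ± 0.11, adjusted p = 0.0061, edgeR). Mrps18b measured 12.4, 11.9, 16.0 and 17.2 CPM against 10.3, 10, 10.5 and 11.2 CPM (0.45 ± 0.13, adjusted p = 0.015, edgeR). Mrps18a, at 37.4, 36.6, 42.8 and 42.1 CPM against 38.9, 40.2, 38.1 and 38.8 CPM, was not called (0.03 ± 0.08, adjusted p = 0.81, edgeR), with an interval from -0.15 to 0.20. Exons of Mrps30 and Mrps18b overlap those of the antisense genes B430218F22Rik and Gm16279. Those of Mrps18c overlap Gm43511 on the same strand, so the counts of these higher genes may hold reads of their neighbours.

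Mrps34, specific to mitochondria, measured 31.0, 28.0, 32.0 and 32.4 CPM in bigenic and 26.9, 24.6, 23.7 and 22.5 CPM in control libraries (log2 fold change 0.34 ± 0.09, adjusted p = 0.0091, edgeR). Its exons overlap those of Nme3 on the same strand and of Mapk8ip3 on the other, so its count may hold reads of either. Mrps26 (0.39), Mrps28 (0.33) and Mrps31 (0.31) were higher with overlapping groups. Mrps28 and Mrps31 kept their call in 7 and 9 of 21 alternatives and lost it with upper-quartile factors, library size alone and FPKM. The smallest change was that of Mrps35, at 0.02 ± 0.12 (log2; adjusted p = 0.90, edgeR). Of the 16 small subunit genes with a bacterial counterpart 2 were higher and 6 lower, and of the 10 counted by position as specific to mitochondria 4 were higher (Mrps18b, Mrps26, Mrps31 and Mrps34) and 1 lower (Mrps25). The difference between these subgroups was not tested. With Mrps30 and Mrps18a moved to the large subunit and Mrps36 left out, the counts were 8 higher and 20 lower of 50, and 6 higher and 7 lower of 26.

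Summed over whole subunits, TMM-scaled CPM overlapped between groups and deposited FPKM, which are scaled by library total and gene length, did not. Large subunit genes summed to 1700, 1500, 1720 and 1720 CPM in bigenic and 1680, 1720, 1750 and 1780 CPM in control libraries. Small subunit genes summed to 833, 739, 855 and 834 CPM in bigenic and 808, 833, 834 and 856 CPM in control libraries. In FPKM the large subunit summed to 1400, 1230, 1360 and 1410 in bigenic and 1480, 1500, 1500 and 1600 in control libraries. The small subunit summed to 768, 676, 758 and 766 FPKM in bigenic and 791, 821, 812 and 856 FPKM in control libraries. Bigenic library 2 gave the lowest sum for both subunits on either scale.

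That library also stood out among single genes. It was the lowest bigenic library in 14 of the 14 members called higher, and the lowest in 10 of the 28 called lower, where library 3 was lowest in 12. The median deviation of the large subunit genes from the control mean (log2) was -0.07, -0.20, -0.15 and -0.09 in bigenic libraries 1 to 4 and -0.04 to 0.03 in control libraries. For the small subunit it was -0.03, -0.18, 0.05 and 0.04 in bigenic libraries. Without bigenic library 2, 23.4% of all genes were higher and 24.9% lower. In that fit 13 large and 9 small subunit genes were higher, and 16 large and 8 small subunit genes were lower.

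**Figure D4:**
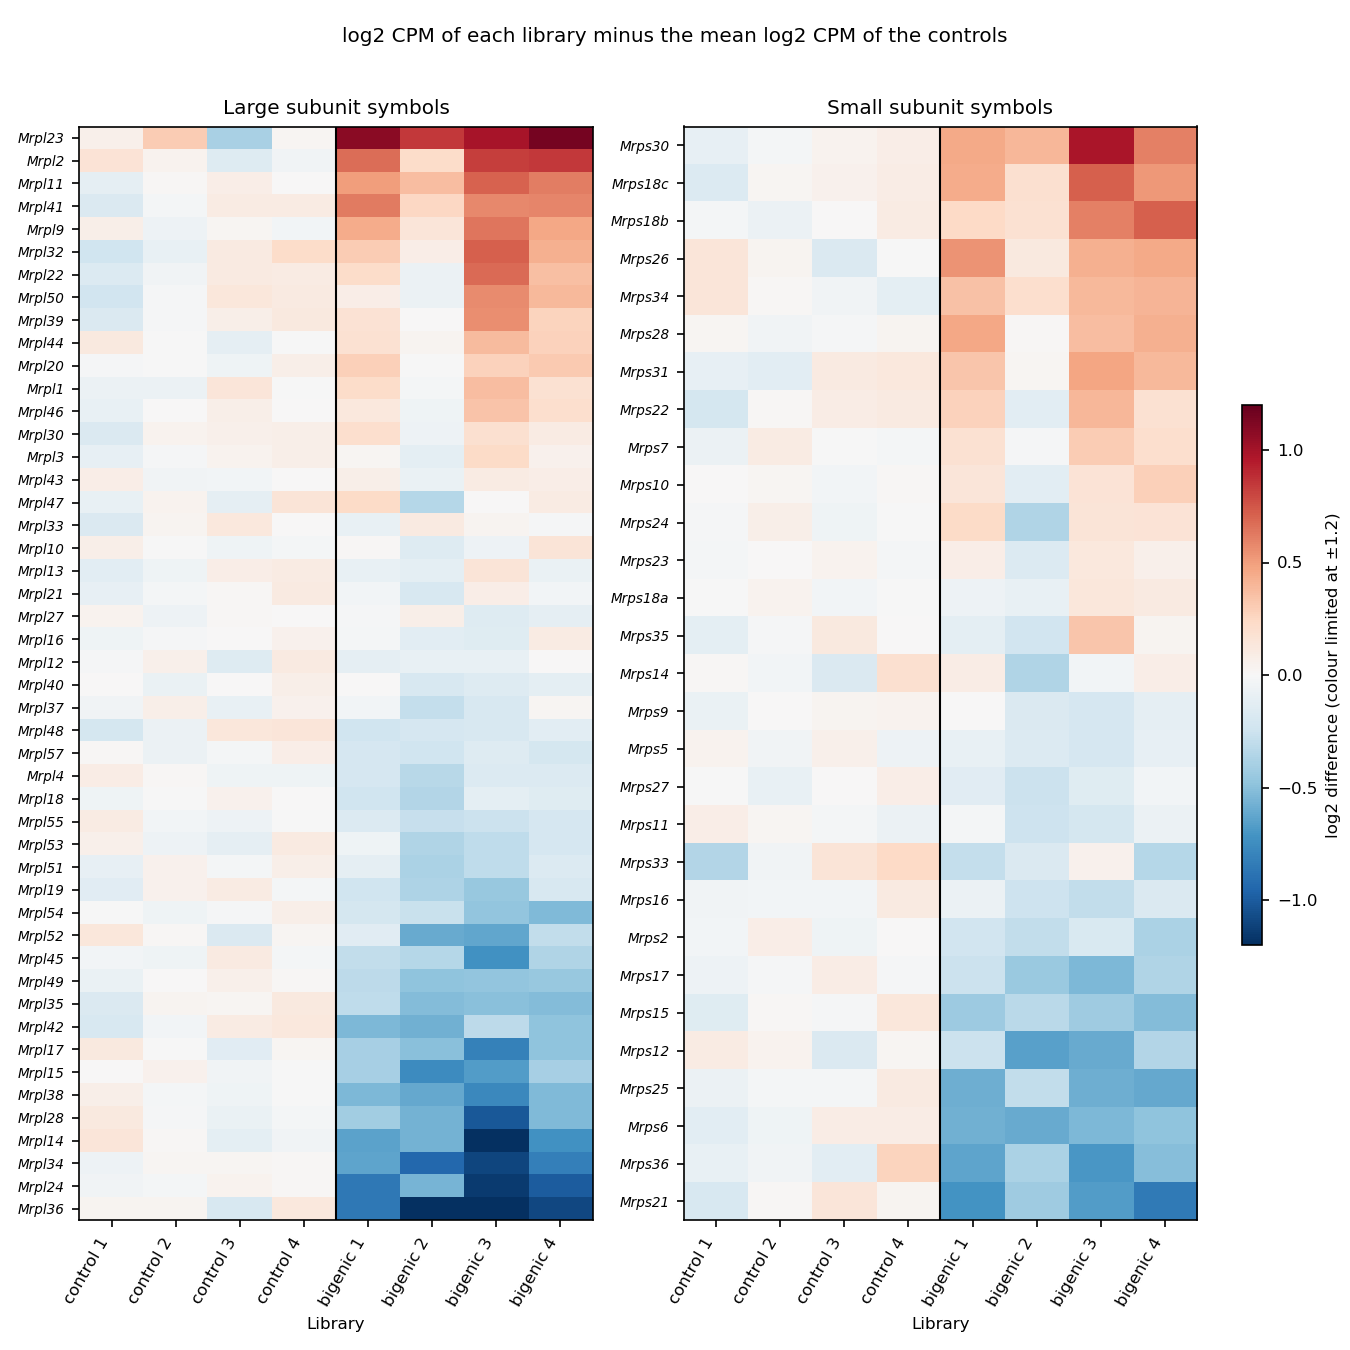
Log2 CPM of each member in each library minus the mean log2 CPM of the 4 controls, members ordered by fold change, control libraries left of the line and bigenic libraries right of it; colour is limited at ±1.2. Bigenic library 2 is paler than the other bigenic libraries in the higher genes, in which it is the lowest of its group in 14 of 14.

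The summed choroid plexus markers given above did not overlap between groups, and 9 of 10 markers were lower in bigenic libraries. Groups were apart for only 4 of the 10, however. Ttr, a transcript abundant in choroid plexus, measured 2.25 to 4.62 CPM in bigenic libraries. In control libraries 1 to 4 Ttr measured 300, 2360, 2960 and 2.76 CPM. Enpp2 alone gave 248 of the 295 CPM of control library 4. Without control libraries 2 and 3, 10.4% of all genes were higher and 11.4% lower, and the members called were 4 higher and 11 lower in the large and 2 higher and 6 lower in the small subunit. All 23 of these were among the 42 called with 8 libraries. Ttr was high in control libraries 1 to 3 alone, so a Ttr covariate and the group cannot be fully told apart. A call lost with this covariate therefore does not show what the change came from. With Ttr as a covariate (log2 CPM), 8.41% of all genes were higher and 11% lower. Members called were then 1 higher (Mrpl11) and 10 lower in the large and 0 higher and 5 lower in the small subunit. Mrpl36, Mrpl34, Mrpl24, Mrpl38, Mrpl49, Mrpl15, Mrps21, Mrps6, Mrps25 and Mrps15 remained lower in both fits. Of the higher genes, Mrpl2, Mrpl23, Mrpl41, Mrps30 and Mrps18c were not called with the covariate. Mrpl9, Mrps18b and Mrps34 were called in neither fit. Of the lower genes described above, Mrps12 was not called with the covariate, and Mrps17 was called in neither fit. In no fit did a member that was called with 8 libraries change sign.

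Some markers of other cells also differed between the groups. The 10 astrocyte markers summed to 9920 to 11200 CPM in bigenic and 8630 to 9180 CPM in control libraries, with 6 called higher and 1 lower. Groups were apart for 4 of these 10. Aldoc alone gave 4300, 3900, 4510 and 4390 CPM of the bigenic sums and 3740, 3420, 3280 and 3210 CPM of the control sums. The separation of the astrocyte sums therefore leans on this 1 gene. The 8 microglia markers summed to 143 to 171 against 186 to 220 CPM, and the 8 endothelial markers to 141 to 156 against 202 to 248 CPM. Markers of granule neurons (5240 to 7430 against 5280 to 6440 CPM), Purkinje cells (13800 to 15500 against 12300 to 14300 CPM) and oligodendrocytes (4470 to 5990 against 4110 to 4960 CPM) overlapped. No marker of any of these lists was at 0 in all libraries. The part of these cells in the changes of the members was not tested.

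Of 6 genes for mitochondrial ribosomal proteins with other symbols, 2 were higher (33.3%) and 1 was lower (16.7%). Dap3, a GTP-binding small subunit protein, was higher (log2 fold change 0.31 ± 0.08, adjusted p = 0.0088, edgeR), as was Aurkaip1 (0.32 ± 0.10, adjusted p = 0.019). Ict1, a hydrolase built into the large subunit, was lower (-0.26 ± 0.07, adjusted p = 0.013). Of 30 assembly and ribosomal RNA modification factors, 7 were higher (23.3%) and 8 lower (26.7%), with a median log2 fold change of -0.03. Both shares lay near those of all genes tested (21.4% and 22.9%). Tfb1m, which methylates the small subunit RNA, measured 1.83, 3.03, 2.06 and 2.11 CPM in bigenic and 5.94, 6.36, 7.76 and 6.20 CPM in control libraries. Its log2 fold change was -1.54 ± 0.18 (adjusted p = 8.2e-05, edgeR), lower than that of every member. Fastkd2 was lower (-0.56), and Rpusd3 (0.54) and Mettl17 (0.50) were higher.

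Genes that work with the ribosome in translation were lower more often than higher. Of 19 translation factors and inner membrane partners tested, 7 were lower and 2 higher, with a median log2 fold change of -0.12. Mtrf1l, a release factor, was lower by -0.85 ± 0.12 (log2; adjusted p = 0.00027, edgeR), and Coa3, which acts in synthesis of a cytochrome oxidase subunit, by -0.88 ± 0.12 (adjusted p = 0.00021, edgeR). Oxa1l, which inserts new chains into the inner membrane (0.35), and Letm1 (0.29) were higher. Of 22 mitochondrial aminoacyl-tRNA synthetases and partners, 10 were lower (45.5%) and 1 higher (4.55%), with a median of -0.23. Wars2 (-0.86) and Tars2 (-0.45) were lower, and Gars, whose enzyme also serves the cytosol, was higher (0.30).

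Genes for mitochondrial transcription and DNA upkeep gave 1 higher (6.67%) and 4 lower (26.7%) of 15, against 21.4% and 22.9% of all genes tested. Tfam, which packages and transcribes mitochondrial DNA, was higher (log2 fold change 0.34 ± 0.11, adjusted p = 0.026, edgeR), and the nuclease Mgme1 (-0.97) and the RNA phosphorylase Pnpt1 (-0.43) were lower. Of 15 regulators of mitochondrial biogenesis, 5 were higher (33.3%) and 2 lower (13.3%). Ppargc1a, a coactivator of these genes, measured 43.7, 54.1, 40.8 and 39.7 CPM in bigenic and 30.0, 29.4, 29.4 and 30.0 CPM in control libraries. The groups were apart, with a log2 fold change of 0.59 ± 0.10 (adjusted p = 0.00082, edgeR). Esrrb was higher (0.76), and Creb1 (-0.33) and Pprc1 (-0.35) were lower.

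Other mitochondrial genes and the cytosolic ribosome had different counts. Of 29 genes for mitochondrial import, shape and metabolism, 4 were higher, among them Tomm20 (0.67) and Hspa9 (0.51), and 2 were lower, Chchd3 (-0.22) and Fh1 (-0.21). These were 13.8% and 6.9%, against 21.4% and 22.9% of all genes tested. Of 82 nuclear genes of the respiratory chain and ATP synthase, 12 were higher and 9 lower, with a median of 0.07. Atp5l (0.86) was higher and Ndufc1 (-0.58) and Ndufa1 (-0.38) were lower, and Atp5sl (0.38), an assembly factor that matched by its symbol, was higher. Of 80 cytosolic ribosomal protein genes, 33 were higher (41.2%) and 2 lower (2.5%), with a median of 0.28. Rps27 (1.28) and Rps14 (0.63) were higher, and Rpl27a (-0.60) and Rpl7l1 (-0.26), which matched by its symbol, lower. Rps27 rests on low counts, at 3.05, 3.03, 4.28 and 4.03 CPM in bigenic and 1.37, 1.49, 1.30 and 1.74 CPM in control libraries. These lists were not tested against the members or against each other.

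**Figure D5:**
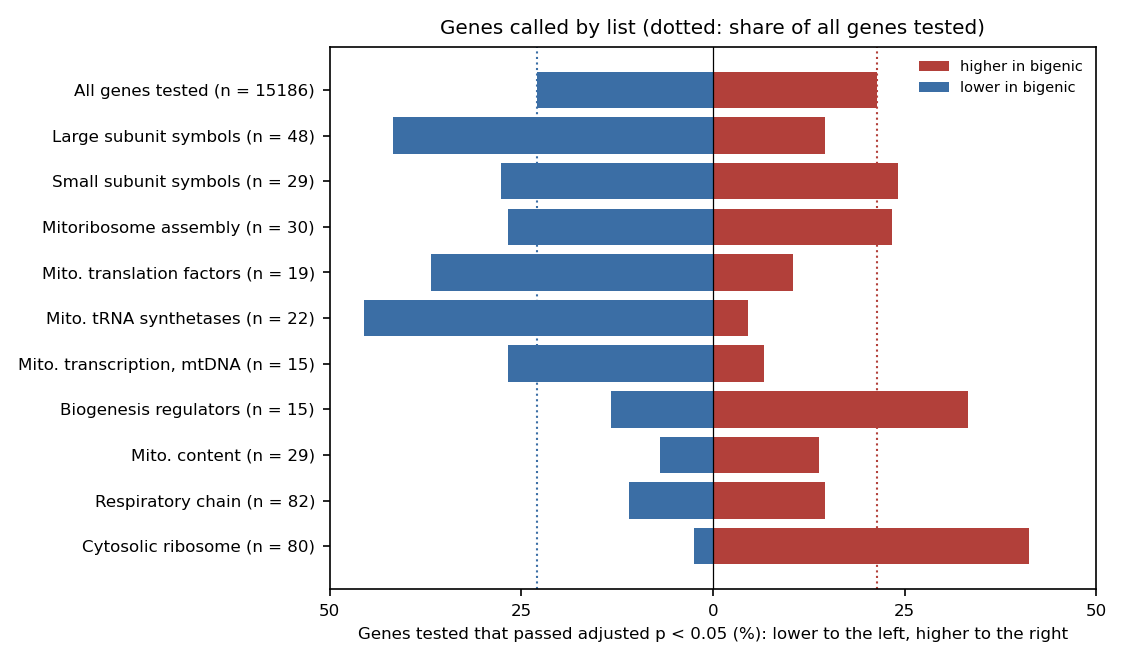
Percent of tested genes called lower (blue, left) and higher (red, right) for the members and the other gene lists, with dotted lines at the shares of all genes tested (22.9% lower, 21.4% higher). The large subunit has 41.7% lower and 14.6% higher, and the cytosolic ribosome has more genes higher than lower.

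Members were short and abundant compared with other genes. Their median length was 1053 bases against 2909 for all genes tested, and their median FPKM 28.8 against 8.09, while median GC content was 50.4% against 50.2%. Across the 77 members the log2 fold change had a Spearman correlation of 0.06 with length, -0.09 with GC content and 0.11 with FPKM, points that share the same 8 libraries. Median lengths were 987 bases in the higher, 1012 in the lower and 1067 in the uncalled members. All 77 are annotated as protein coding and lie on 17 chromosomes. Exons of 32 members overlap another gene, and of these 6 were higher (18.8%) and 9 lower (28.1%). Of the 45 without overlap, 8 were higher (17.8%) and 19 lower (42.2%), against 21.4% and 22.9% of all genes tested.

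Many members start close to a gene on the opposite strand. A start within 1000 bases was found for 23 members, and 21 of these neighbours were tested, with 4 higher and 5 lower. Of all genes tested, 21.4% were higher and 22.9% lower, near the shares of these neighbours. In 2 pairs both genes were called, each in the same direction: Mrpl32 (0.39) with the proteasome gene Psma2 (0.36), and Mrpl41 (0.51) with Pnpla7 (0.50). For Mrpl49 (-0.43), the neighbour Fau was not called (0.20, adjusted p = 0.39, edgeR), nor was Sars2 beside Mrps12 (-0.03, adjusted p = 0.89, edgeR). Mitd1 was lower (-1.35) beside Mrpl30, which was not called. Over the 21 pairs the log2 fold changes of member and neighbour had a Pearson correlation of 0.02 and a Spearman correlation of 0.17. Psma2, Pnpla7, Fau, Sars2 and Mitd1 were named after their values were seen.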

How the data were processed

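Per the submitters' processing notes, the authors used STAR, HTSeq and the mm10 build; versions and the strand setting of counting are not given in the sources used here. The labels give conflicting library kits and instruments: mirVana, Nugen Ovation and NextSeq in the series text, against RNeasy, stranded TruSeq (rRNA depleted) and HiSeq4000 in the protocols of the samples. The authors deposited a table of unnormalised read counts and a table of FPKM. The deposited FPKM equal the counts divided by 1 length per gene and the library total, to a relative spread of 6.5e-07. Replicates are separate mice per the labels.

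Counts were fitted with edgeR 4.0.16 in R 4.3.3 (filterByExpr, TMM, robust quasi-likelihood F test, 4 bigenic against 4 control libraries). Benjamini-Hochberg adjustment covered 15186 genes. On simulated counts the fit called 54% of 100 genes changed 1.5-fold and 84% of 100 changed 2-fold. Of its calls there, 8.0% were false. No other genes were changed in the simulation, whereas 44.3% of all genes tested were called in the data. These simulated rates may therefore differ from those of the main fit. A gene not called here may still have changed. CPM are TMM-scaled. Calls need an adjusted p under 0.05. Fold changes carry the SE of the fit and 95% intervals. Symbols matched GENCODE M21 (GRCm38) for 23696 of 24060 table entries, 886 of them through an older symbol; reads shared with pseudogene copies were not checked. Promoters are from RefSeq. Alternatives used limma 3.58.1, DESeq2 1.42.0 and mgcv 1.9.3 (length and GC offset).

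The members and lists were chosen with earlier results of these data known. Named members are, per subunit, up to 6 higher and 6 lower called genes with the smallest p and groups apart, the 3 with the highest and the 1 with the lowest FPKM, the one with the smallest change, and Mrps36; from each other list up to 2 called genes per direction. Other members are given by their values only.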

Additional observations from a re-analysis of the deposited data

Results flagged for a closer look

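In each of these groups of 4 libraries, 1 library lay far from the other 3, by a test of the gap against the range; 11 of 122 groups tested did so, and chance alone gives about 1 in 20. Bigenic library 2 was low in Mrpl41 (75.2 CPM, the others 94.6 to 97.5) and in Mrpl20 (47.5, the others 57.9 to 59.1), and high in Mrps25 (41.7, the others 33.6 to 34.1). Bigenic library 1 was high in Mrpl49 (49.9 CPM, the others 44.3 to 45.0). Bigenic library 3 was low in Coa3 (23.8 CPM, the others 34.9 to 36.7) and Ndufc1 (25.0, the others 30.7 to 31.6). Control library 1 was low in Mrpl34 (26.0 CPM, the others 27.4 to 27.6) and Mrpl30 (38, the others 44.3 to 45.0) and high in Atp5sl (57.0, the others 51.9 to 52.7). Control library 3 was high in Gars (164 CPM, the others 155 to 156), and control library 4 in Atp5l (3.61, the others 3.33 to 3.36).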

How the results depend on the processing

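Of the 1281 values of 61 named genes under 21 alternatives, 1146 kept direction and side of the threshold, 110 kept direction but lost the call, 2 gained one and 23 changed sign. The sign changes were in Mrpl33, Mrps18a and Mrps35, which were not called: with upper-quartile factors -0.053, -0.033 and -0.038, with library size alone -0.08, -0.06 and -0.065, with log2(FPKM + 1) -0.075, -0.06 and -0.073 (the same without a filter), with log2(FPKM + 0.1) -0.077, -0.062 and -0.076, and in Mrpl33 with unfiltered counts -0.014. With 1 library left out Mrpl33 ranged from -0.05 to 0.048, Mrps18a from -0.019 to 0.063 and Mrps35 from -0.106 to 0.097. Kept in all 21 were 1 large subunit gene called higher, 10 called lower, 0 small subunit genes called higher and 5 called lower. Large subunit genes called higher (7) became 15 with the length and GC offset, 15 with the replicate block and that offset, 4 without control libraries 2 and 3, 1 with the Ttr covariate and 2 past 1.5-fold; those called lower (20) became 11, 10 and 6 in the last 3. Small subunit genes called higher (7) became 3 on unfiltered FPKM, 2 without control libraries 2 and 3, 0 with Ttr and 1 past 1.5-fold; those called lower (8) became 13 with either FPKM pseudocount, 5 with Ttr and 1 past 1.5-fold. The large subunit median (log2) became -0.153 with upper-quartile factors, -0.179 with library size alone, -0.171 and -0.177 on FPKM with a pseudocount of 1 and 0.1 (-0.171 unfiltered), -0.024 with the offset, alone or with the block, and -0.165 with Ttr; the small subunit median became -0.14 with library size alone, -0.134 and -0.142 on FPKM (-0.134 unfiltered), 0.034 with the offset and 0.03 with block and offset. Leaving out 1 library in turn gave 5 to 13 large and 4 to 9 small subunit genes called higher (13 and 9 without bigenic library 2, 4 without bigenic library 4), 14 to 17 large and 7 to 8 small called lower, and medians of -0.119 to -0.071 and of -0.108 to 0.036 (0.036 without bigenic library 2, 0.014 without control library 4). Library size alone called 2423 genes higher and 4373 lower over all genes, 35.7% of calls higher against 48.2% with TMM. The cause of these shifts was not tested. Deviations of log2 CPM from the group mean correlated at 0.024 to 0.329 between same-numbered mice. These values were not above 0.1 in every pair, so the main comparison has no block. As a hint of a shared factor, 3 of 4 bigenic and 3 of 4 control libraries correlated best with their own number in these deviations. The replicate block gave 9 higher and 20 lower large and 7 higher and 8 lower small subunit genes, and 3648 higher and 3795 lower genes over all. At 0.75 to 2.17 CPM, Mrpl23 rests on the fewest counts of the members (27 in 1 library).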
